A study of Homo sapiens with 9 samples.

Results

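The amino acid stress and tRNA synthetase genes described here were 49 of the 19918 gene symbols counted in these libraries. Of these, 31 were genes of the ATF4 pathway and of serine and asparagine synthesis taken from a fixed list. The remaining 18 were cytosolic aminoacyl-tRNA synthetases taken by their symbols, which are a single capital letter followed by ARS, with *EPRS* added. The rule itself used no measured value. The genes were chosen with earlier results of these data known, so the shares given below are not an independent test. To examine the transcriptome after knockdown of the long non-coding RNA *IGF1R-AS1*, the study compared total RNA of VCaP cells, an established human prostate cancer cell line, between 3 groups of 3 libraries. The si025 and si033 groups each received a siRNA aimed at exon 1 of *IGF1R-AS1*, and the control group, whose genotype label reads WT, received a control siRNA. Per the labels, 100 pmol of siRNA was used for reverse transfection in all groups, and cells were collected after 72 h. Each library was made from 1.3 µg of total RNA. The groups therefore shared 1 cell line, the transfection and the time of harvest, and differed in the siRNA. A figure legend of the study gives 3 biological replicates for the knockdown experiments. *IGF1R-AS1* itself was not analysed here, and how far it was depleted is therefore not known from these values.

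Cells that lack amino acids accumulate uncharged tRNAs, which activate the kinase GCN2. GCN2, and PERK in the endoplasmic reticulum, phosphorylate the initiation factor eIF2α, which lowers general translation while raising translation of the transcription factor ATF4. ATF4 then drives genes for amino acid synthesis, amino acid uptake and the charging of tRNAs by aminoacyl-tRNA synthetases, some of which are held in a large multisynthetase complex. Because ATF4 is controlled mainly at translation, its mRNA level is not a measure of its protein.

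A DNA element that combines a C/EBP and an ATF site, with the core TGATGNAA, is the textbook binding site of ATF4, and windows around it are shown because many of these genes hold it. RefSeq promoter sequences (GRCh38.p14), from 250 bases before the annotated start to 50 bases after it, were matched for 39 of the 49 genes. Only the first promoter entry of each of these genes was searched, so other starts of a gene were not covered. TGATGNAA on either strand was found in 11 of these 39 promoters (28.2%), compared with 1270 of all 35116 promoters of that length (3.62%). The listed genes were chosen as genes of the ATF4 pathway, so this excess is not independent of the choice. The 11 genes were *ATF3*, *CHAC1*, *ASNS*, *SLC3A2*, *SLC7A1*, *AARS*, *CARS*, *IARS*, *MARS*, *NARS* and *TARS*. In 7 of them the match was TGATGCAA or its reverse complement TTGCATCA, which 304 of all promoters held (0.866%). Windows of 30 bases are printed along the strand of each gene, with the match in capitals.

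*ASNS* (chr7:97872458-97872487, minus strand): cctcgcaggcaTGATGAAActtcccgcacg
*ATF3* (chr1:212565205-212565234, plus strand): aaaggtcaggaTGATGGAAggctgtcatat
*AARS* (chr16:70289675-70289704, minus strand): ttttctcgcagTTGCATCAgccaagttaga
*IARS* (chr9:92293692-92293721, minus strand): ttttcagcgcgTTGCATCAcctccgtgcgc
*MARS* (chr12:57488053-57488082, plus strand): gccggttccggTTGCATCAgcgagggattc
*NARS* (chr18:57621804-57621833, minus strand): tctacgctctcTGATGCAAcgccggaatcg
*TARS* (chr5:33440956-33440985, plus strand): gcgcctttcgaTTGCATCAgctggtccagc

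The *ASNS* match lay between 68 and 61 bases before the start. In *IARS* the match ended 6 bases before the start, and in *NARS* it began 14 bases after it. The E-box CACGTG, a palindrome that does not overlap TGATGNAA, was found in 4 of the 39 promoters (10.3%) and in 7.26% of all promoters. Its holders were *ATF4*, *ALDH18A1*, *SLC7A5* and *IARS*, and the *ATF4* and *ALDH18A1* windows are given.

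*ATF4* (chr22:39520465-39520494, plus strand): ggaggagacggtCACGTGgtcgcggcggaa
*ALDH18A1* (chr10:95656830-95656859, minus strand): gggctggcccgcCACGTGgagcgctggctt

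A match describes these letters in this window and is not evidence of binding. The transcripts of *NARS*, *IARS* and *MARS*, whose windows hold the same core of 8 letters, did not share 1 pattern of change.

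The shallowest library held 11649811 counts and the deepest 28492259 (2.45 times as many), of which the 49 genes took between 0.461% and 0.53% of the counts. All 9 luminal epithelial markers examined for VCaP, *KLK2* and *KLK3* among them, were expressed. Their summed level was 5018 to 5106 CPM (counts scaled to a common library size, TMM-normalised) in control, 7530 to 7838 CPM with si025 and 4516 to 4695 CPM with si033. This shift went with the siRNAs, and its part in the results was not tested. In such bulk libraries, fewer cells that express a gene and less RNA per cell cannot be told apart. The leukocyte marker *CD3E* was at 0 in every library, as was the endothelial marker *CDH5*. No examined leukocyte marker exceeded 35 counts, no endothelial marker 5 counts and no fibroblast marker 86 counts.

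Differences were tested with edgeR's quasi-likelihood test on all 12810 genes that passed its expression filter, 48 of the 49 among them. A gene was called when its Benjamini-Hochberg adjusted *p* value over all tested genes was under 0.05, and every adjusted *p* value below comes from this test unless another is named. The gene left out by the filter was *VARS*, the valyl-tRNA synthetase, with 0 to 93 counts per library and a median of 3. All 61 genes within 500000 bases of *VARS* had under 100 counts in every library, so its level was not read. *CARS*, the cysteinyl-tRNA synthetase, was tested on 27 to 102 counts, and 9 of its 12 neighbours had under 100 counts in every library. *CBS* had 214 to 556 counts and a near-identical copy, *CBSL*, with 154 to 415, so reads of the pair may be split or lost.

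With si025, most of the group moved down. Of the 48 tested genes, 34 were called (70.8%), where 61.7% of all tested genes were called. Among these, 30 were lower (62.5%, where 28.8% of all genes were lower) and 4 higher (8.33%, where 32.9% were higher). The median log2 fold change of the 48 genes was -0.17, compared with 0.02 over all tested genes. In 30 genes all si025 libraries lay below all control libraries, in 5 they lay above, and in 13 they overlapped. Over all genes 30.7% lay below and 35% above, 65.7% in all without overlap.

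With si033, fewer genes of the group were called, and again most of those were lower. Of the 48 genes, 29 were called (60.4%, where 54.8% of all genes were called). Of these, 24 were lower (50%, where 27.8% of all genes were lower) and 5 higher (10.4%, where 26.9% were higher). The median log2 fold change was -0.15, compared with 0.00 over all genes. All si033 libraries lay below control in 29 genes, above in 8, and overlapped in 11, where 30.2% of all genes lay below and 29.3% above (59.5% in all without overlap).

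Among the called genes of the group, the median absolute log2 fold change was 0.37 for si025 and 0.32 for si033, compared with 0.40 and 0.36 over all called genes. A called change of at least 2-fold was reached by 3 genes with si025 (*PSAT1*, *SLC7A11* and *SLC7A5*) and by 1 with si033 (*NARS*), where 7.02% and 5.14% of all genes did so. Both comparisons used the same 3 control libraries, so they are not independent of each other. Side by side, 16 genes were lower with both siRNAs, 1 was higher with both (*NUPR1*), and 3 were called in opposite directions (*PHGDH*, *SLC1A5* and *STC2*). A further 14 were called with si025 alone, 9 with si033 alone and 5 with neither. These joint patterns were not counted over all genes, so whether they are unusual is not known. A call with 1 siRNA alone does not show that the siRNAs differed, so they were also compared directly. In that comparison 29 of the 48 genes were called (60.4%, where 60.9% of all genes were called), 14 higher and 15 lower with si025 than with si033, where 31.2% of all genes were higher and 29.7% lower. The si025 libraries lay above all si033 libraries in 15 genes and below them in 17 (32.2% and 30.4% of all genes, 62.6% together). Called differences of at least 2-fold were found for *PSAT1*, *SLC1A5* and *NARS* (3 genes, where 7.7% of all genes had one).

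**Figure D1:**
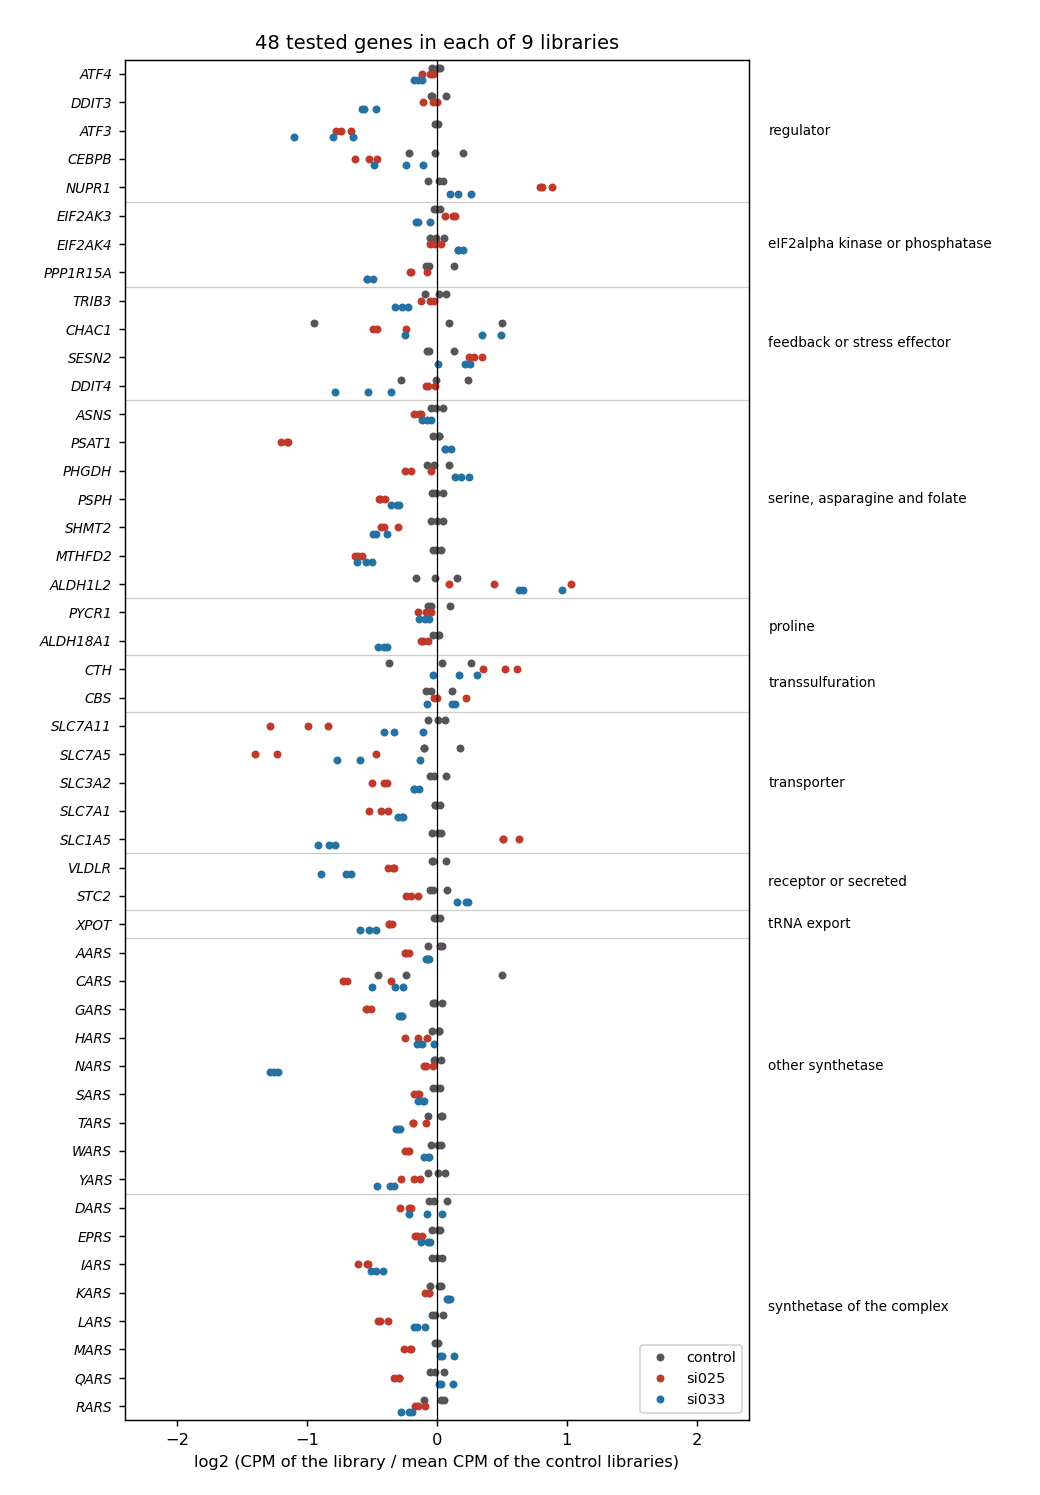
Log2 ratio of the CPM of each library to the mean of the control libraries (x axis) for the 48 tested genes, grouped by role; points are libraries (grey control, red si025, blue si033). Most red and blue points lie left of 0, *PSAT1* stands apart in red, *NARS* in blue, and *SLC1A5* has its red points right of 0 and its blue points left of it.

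Among the transcription regulators, *ATF4* mRNA changed little. It measured 388, 405 and 402 CPM in control, 368, 390 and 385 CPM with si025 and 368, 360 and 352 CPM with si033. The si025 libraries overlapped control, while all si033 libraries lay below it. The log2 fold change was -0.06 ± 0.04 (SE, adjusted *p* = 0.178) with si025 and -0.15 ± 0.04 (adjusted *p* = 0.00439) with si033, a level of 90.4% of control. With offsets for gene length and GC content *ATF4* was also called lower with si025 (adjusted *p* = 8.35e-06, the highest over the 18 alternatives being 0.425). Its level per kilobase in control, 159 RPKM (read pairs per kilobase of exon, scaled to library size), was the highest of the tested genes of the group, followed by *NUPR1* at 145 RPKM.

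*NUPR1*, a small stress-induced nuclear protein, was the gene that rose with both siRNAs. Control libraries held 126, 137 and 134 CPM, si025 libraries 230, 245 and 233 CPM, and si033 libraries 159, 142 and 148 CPM. No library of either siRNA overlapped control. The log2 fold change was 0.83 ± 0.05 (adjusted *p* = 1.18e-12) with si025 and 0.18 ± 0.05 (adjusted *p* = 0.00484) with si033. *NUPR1* was thus higher with si025 than with si033, by 0.66 ± 0.05 on the log2 scale (adjusted *p* = 5.22e-11).

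*ATF3*, a stress-inducible transcription factor, fell with both. It was at 5.33, 5.29 and 5.25 CPM in control, at 3.35, 3.18 and 3.10 CPM with si025 and at 3.38, 2.48 and 3.04 CPM with si033. All si025 and si033 libraries lay below all controls. *ATF3* fell by 0.73 ± 0.15 on the log2 scale with si025 (adjusted *p* = 0.000182) and by 0.83 ± 0.15 with si033 (adjusted *p* = 6.98e-05). *DDIT3*, which encodes the factor CHOP, fell with si033 by 0.54 on the log2 scale (adjusted *p* = 1.64e-07) and stood at -0.03 with si025 (adjusted *p* = 0.637). The siRNAs differed in *DDIT3* (adjusted *p* = 2.59e-07). *CEBPB*, a leucine zipper partner of ATF4, fell with si025 by 0.49 (adjusted *p* = 0.00104) and was at -0.27 with si033 (adjusted *p* = 0.0579). That si033 value was called in 6 of its alternatives, 2 of which left out si033 replicate 1 or control replicate 3.

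**Figure D2:**
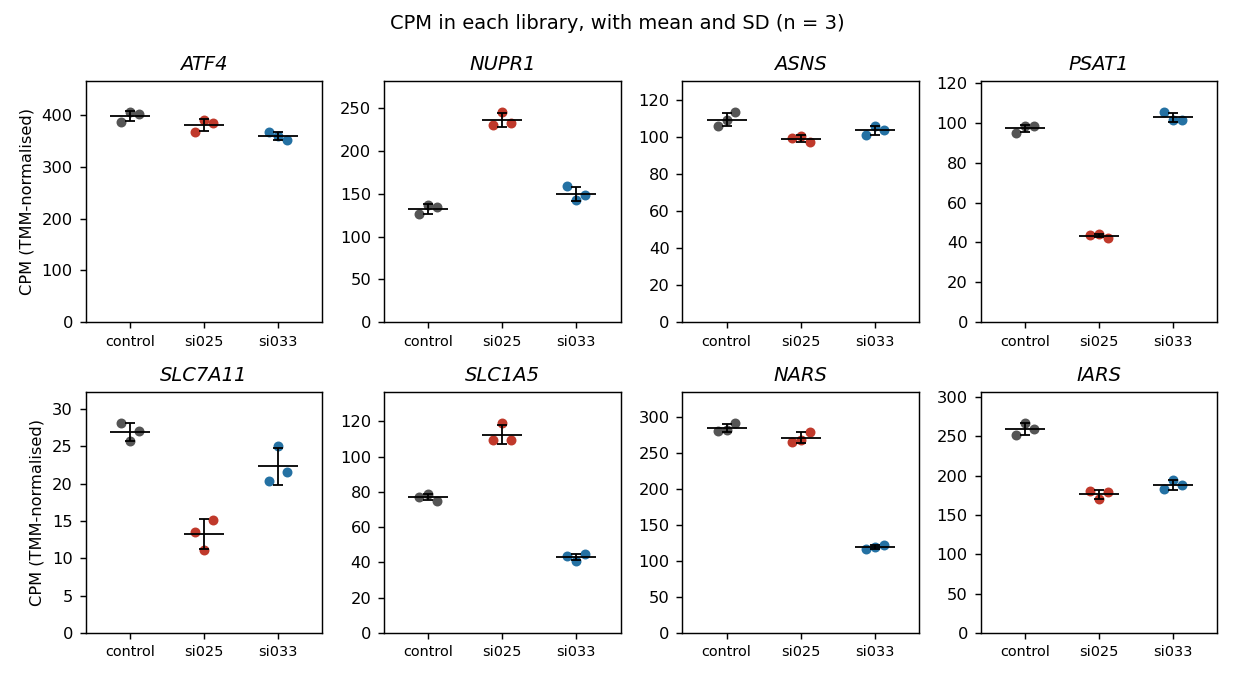
CPM (y axis, from 0) of 8 genes in each of the 9 libraries; points are libraries, the horizontal line is the group mean and the bar its SD (n = 3). *ATF4* and *ASNS* stay near their control level, *PSAT1* and *SLC7A11* are lowest with si025, *NARS* is lowest with si033, and *SLC1A5* is highest with si025 and lowest with si033.

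Of the eIF2α kinases and phosphatase, 2 of 3 genes passed the test with si033 and none with si025 (54.8% and 61.7% of all genes did). *EIF2AK4*, which encodes GCN2, measured 80.4, 82.8 and 86.7 CPM in control, 85.3, 80.5 and 82.7 CPM with si025 and 93.3, 95.6 and 93.5 CPM with si033. The si033 libraries all lay above the others. *EIF2AK4* rose with si033 by 0.17 ± 0.05 on the log2 scale (adjusted *p* = 0.00475) and stood at -0.02 ± 0.05 with si025 (adjusted *p* = 0.798). With the offsets the si025 value was -0.10 and was called lower (adjusted *p* = 0.0303, up to 0.957 in other alternatives). The siRNAs differed by -0.19 (si025 minus si033, adjusted *p* = 0.0019).

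*PPP1R15A*, the GADD34 subunit that directs dephosphorylation of eIF2α, fell with si033. Its levels were 38.0, 33.1 and 32.7 CPM in control, 29.98, 32.8 and 30.1 CPM with si025 and 23.9, 24.6 and 23.9 CPM with si033. The si033 libraries lay below all others, and those of si025 overlapped control. On the log2 scale *PPP1R15A* stood at -0.51 ± 0.07 against control with si033 (adjusted *p* = 1.24e-06) and -0.14 ± 0.07 with si025 (adjusted *p* = 0.0593). The si025 value was called in 5 alternatives, among them those without si025 replicate 2 and without control replicate 3. *EIF2AK3*, which encodes PERK, was called with neither siRNA but was higher with si025 than with si033 by 0.22 (adjusted *p* = 0.00178).

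Among stress effectors, *DDIT4*, whose product REDD1 restrains mTORC1, was at 9.25, 13.2 and 11.1 CPM in control, 10.7, 11.1 and 10.6 CPM with si025 and 6.51, 7.74 and 8.77 CPM with si033. The si033 libraries lay below all others. It fell with si033 by 0.51 ± 0.12 on the log2 scale (adjusted *p* = 0.00117) and was at -0.06 ± 0.12 with si025 (adjusted *p* = 0.662). *TRIB3*, a pseudokinase that feeds back on ATF4, fell with si033 by 0.27 (adjusted *p* = 0.000234) and was at -0.06 with si025 (adjusted *p* = 0.378). With the offsets *TRIB3* was at -0.23 with si025 and was called lower (adjusted *p* = 3.96e-05), and its difference between the siRNAs, 0.21 (adjusted *p* = 0.0017), was 0.10 and was not called (adjusted *p* = 0.0562).

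*CHAC1*, a glutathione-degrading enzyme and a sensitive ATF4 target, was low and variable. It gave 1.75, 2.32 and 0.850 CPM in control, 1.17, 1.39 and 1.19 CPM with si025 and 2.31, 2.09 and 1.38 CPM with si033. All groups overlapped, and it was called with neither siRNA (-0.25 ± 0.31, adjusted *p* = 0.509, and 0.27 ± 0.29, adjusted *p* = 0.454). Control replicate 3 was lowest, and without it the si025 change was -0.71 and was called (adjusted *p* = 0.0424, up to 0.793 over its 17 alternatives). *SESN2*, a leucine sensor, rose with si025 by 0.27 (adjusted *p* = 0.0382). That call was lost with DESeq2, with the offsets and without si025 replicate 1 or 3 or control replicate 1 or 2 (adjusted *p* from 0.0747 to 0.467).

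In serine, asparagine and mitochondrial folate metabolism, 6 of 7 genes were lower with si025 (85.7%, where 28.8% of all genes were) and 3 with si033 (42.9%, where 27.8% were), while 2 were higher with si033. *PSAT1*, the aminotransferase of the serine pathway, showed the largest fall of the group with si025. Control libraries held 95.2, 98.6 and 98.3 CPM, si025 libraries 43.8, 44.1 and 42.5 CPM, and si033 libraries 105, 102 and 102 CPM. The si025 libraries stood far below all others, which lay close together. Its log2 fold change with si025 was -1.17 ± 0.05 (adjusted *p* = 4.24e-15) and with si033 0.08 ± 0.05 (adjusted *p* = 0.168), and the siRNAs differed by -1.24 ± 0.05 (adjusted *p* = 5.96e-16).

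*PHGDH*, which opens the serine pathway, moved in opposite directions. Its levels were 109, 118 and 105 CPM in control, 93.1, 107 and 96.5 CPM with si025 and 131, 122 and 126 CPM with si033. The si033 libraries lay above all others, and 1 si025 library reached into the control range. The log2 fold change was -0.15 ± 0.06 with si025 (adjusted *p* = 0.0213) and 0.20 ± 0.06 with si033 (adjusted *p* = 0.00506), a difference of -0.35 ± 0.06 (adjusted *p* = 1.05e-05). The si025 call was lost under upper quartile normalization and without si025 replicate 1 or 3 or control replicate 2 (adjusted *p* from 0.0501 to 0.141). *PSPH*, which completes the pathway, fell with both siRNAs by 0.43 and 0.32 (adjusted *p* = 1.78e-07 and 1.5e-05).

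The mitochondrial one-carbon enzymes *SHMT2* and *MTHFD2* fell with both siRNAs. *SHMT2* fell by 0.37 with si025 and 0.45 with si033, and *MTHFD2* by 0.60 and 0.56, with adjusted *p* values from 1.43e-10 to 4.37e-07. Neither differed between the siRNAs by more than the test resolved (adjusted *p* = 0.172 and 0.433). *ALDH1L2*, a mitochondrial folate dehydrogenase, was near the limit of detection at 0.524, 0.652 and 0.579 CPM in control, 0.623, 0.794 and 1.19 CPM with si025 and 0.906, 0.928 and 1.14 CPM with si033. The si033 libraries lay above control, and the log2 fold change was 0.80 ± 0.31 (adjusted *p* = 0.0337). The call was lost with DESeq2, without a filter, without si033 replicate 3 and without any single control library (adjusted *p* from 0.0541 to 0.201). *ASNS*, the asparagine synthetase, fell with si025 to 90.2% of control (-0.15 ± 0.05, adjusted *p* = 0.00799), a call lost without control replicate 3 (adjusted *p* = 0.052, down to 0.00351 in other alternatives), and was at -0.08 with si033 (adjusted *p* = 0.143).

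Of the proline synthesis enzymes, *ALDH18A1*, which commits glutamate to proline, was at 131, 135 and 135 CPM in control, 124, 127 and 123 CPM with si025 and 97.7, 103 and 101 CPM with si033. The groups did not overlap. It fell with si033 by 0.41 ± 0.05 on the log2 scale (adjusted *p* = 6e-08), and the si025 value of -0.10 ± 0.04 lay at the threshold (adjusted *p* = 0.0501) and was called in 10 of its alternatives. *PYCR1*, which makes the last step, was at 173, 191 and 170 CPM in control, 168, 172 and 161 CPM with si025 and 170.5, 167 and 162 CPM with si033. The groups overlapped, and it was called with neither siRNA (-0.09, adjusted *p* = 0.116, and -0.10, adjusted *p* = 0.105). With the offsets *PYCR1* was called lower with both, at -0.25 with si025 (adjusted *p* = 3.01e-06) and -0.15 with si033 (adjusted *p* = 0.00178). Without control replicate 3 it was also called with si025 (adjusted *p* = 0.0495).

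Of the transsulfuration genes, only *CTH* was called against control, and only with si025. *CTH*, the cystathionine gamma-lyase that yields cysteine, gave 9.08, 5.87 and 7.76 CPM in control, 11.6, 9.68 and 10.9 CPM with si025 and 7.42, 9.36 and 8.52 CPM with si033. All si025 libraries lay above the others, and *CTH* rose with si025 by 0.50 ± 0.13 (adjusted *p* = 0.0018). Its difference from si033, 0.33 ± 0.12 (adjusted *p* = 0.0254), was lost when si025 replicate 1 or 3 or si033 replicate 1 or 3 was left out (adjusted *p* from 0.0676 to 0.102). *CBS*, the first enzyme of that route, gave 18.9, 16.9 and 16.5 CPM in control, 20.3, 17.4 and 17.2 CPM with si025 and 18.9, 16.6 and 19.2 CPM with si033. The groups overlapped, and it was called with neither siRNA (adjusted *p* = 0.478 and 0.38).

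All 5 amino acid transporters passed the test with si025 (61.7% of all genes did), 4 lower and 1 higher (28.8% and 32.9% of all genes). With si033, 4 of the 5 passed it (80%, where 54.8% of all genes did), each of them lower (27.8% of all genes were). *SLC7A11*, the cystine/glutamate exchanger, measured 28.1, 25.7 and 27.1 CPM in control, 13.6, 11.1 and 15.1 CPM with si025 and 20.4, 25.1 and 21.5 CPM with si033. All si025 and si033 libraries lay below control, and those of si025 lay below those of si033. On the log2 scale *SLC7A11* stood at -1.02 ± 0.09 with si025 (adjusted *p* = 2.26e-09), 49.3% of control, and -0.28 ± 0.09 with si033 (adjusted *p* = 0.00969). Without si033 replicate 3 the si033 value was not called (adjusted *p* = 0.0621, down to 0.000887 in other alternatives).

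*SLC7A5*, the light chain of the LAT1 exchanger, had 10 to 41 counts per library. Of its 10 neighbours within 500000 bases, 6 had under 100 counts in every library, as did 44% of all genes counted, so its low level was not read as low expression. It was at 1.31, 1.30 and 1.58 CPM in control, 1.01, 0.596 and 0.531 CPM with si025 and 0.824, 0.928 and 1.28 CPM with si033. All si025 and si033 libraries lay below control. *SLC7A5* fell with si025 by 1.09 ± 0.29 on the log2 scale (adjusted *p* = 0.0022) and was at -0.41 ± 0.26 with si033 (adjusted *p* = 0.191). *SLC3A2*, the heavy chain that both exchangers use, and the cationic amino acid transporter *SLC7A1* fell with both siRNAs, by 0.42 and 0.44 with si025 and by 0.16 and 0.27 with si033, and both were lower with si025 than with si033 (adjusted *p* = 0.000178 and 0.00251). The *SLC3A2* call with si033 was lost without control replicate 2 (adjusted *p* = 0.0918, down to 0.000215 in other alternatives).

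*SLC1A5*, the neutral amino acid transporter that carries glutamine, moved in opposite directions and had the largest difference between the siRNAs in the group. It was at 77.3, 78.7 and 75.0 CPM in control, 109, 119 and 109 CPM with si025 and 43.4, 40.9 and 44.7 CPM with si033. The 3 groups were fully apart, with control in the middle. In log2 terms *SLC1A5* rose by 0.55 ± 0.05 with si025 (adjusted *p* = 2.49e-09) and fell by 0.83 ± 0.06 with si033 (adjusted *p* = 1.63e-11). Between the siRNAs, *SLC1A5* was 2.61-fold higher with si025 (log2 difference 1.38 ± 0.05, adjusted *p* = 4.94e-16).

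**Figure D3:**
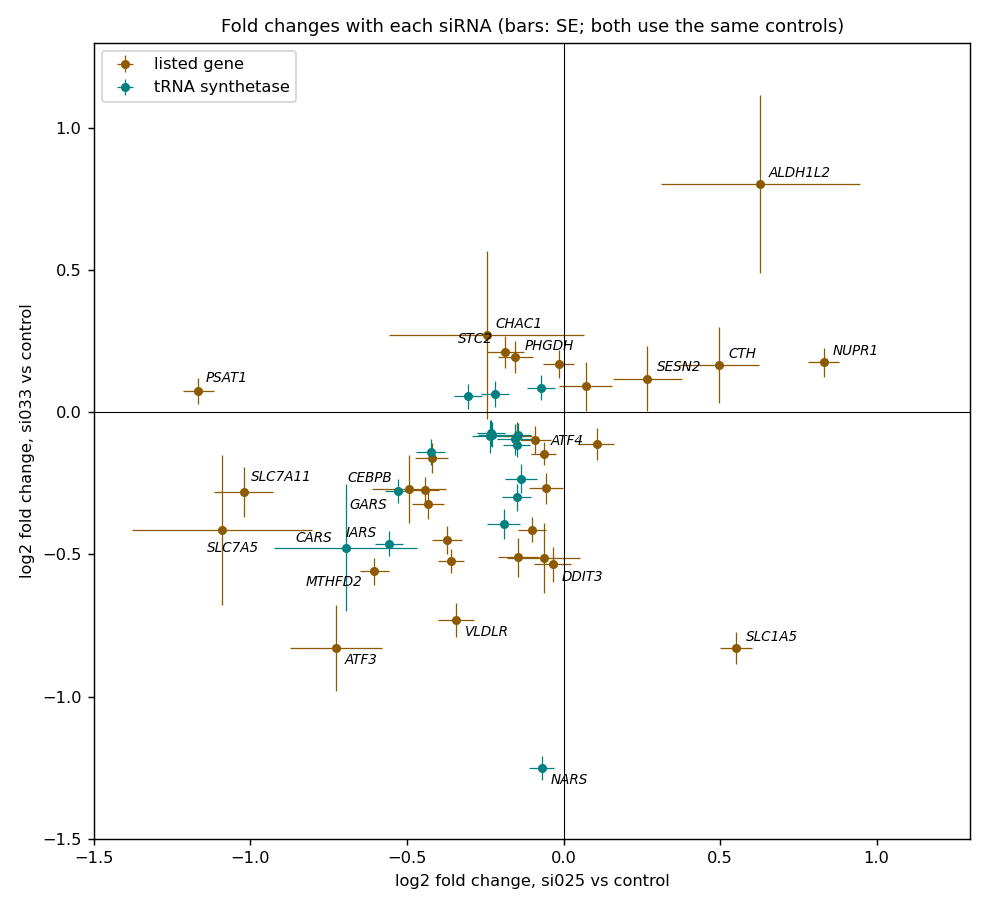
Log2 fold change with si025 (x axis) against that with si033 (y axis) for the 48 tested genes, with SE bars; brown points are listed genes and green points tRNA synthetases. Both axes use the same control libraries, so the spread along the diagonal is not independent; *PSAT1* lies near 0 on the y axis, *NARS* near 0 on the x axis, and *SLC1A5* alone lies far into the lower right.

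Of the receptor and secreted products, *VLDLR*, a lipoprotein receptor, was at 66.7, 71.5 and 66.5 CPM in control, 52.5, 54.3 and 54.0 CPM with si025 and 36.8, 42.0 and 43.2 CPM with si033. The groups did not overlap, with si033 lowest. *VLDLR* fell by 0.34 ± 0.06 with si025 (adjusted *p* = 1.71e-05) and by 0.73 ± 0.06 with si033 (adjusted *p* = 4.48e-10). *STC2*, a secreted glycoprotein, was at 38.4, 41.2 and 37.7 CPM in control, 34.1, 35.5 and 33.3 CPM with si025 and 43.6, 46.1 and 45.6 CPM with si033. Its groups were also apart, with control in the middle. *STC2* fell with si025 by 0.19 ± 0.06 (adjusted *p* = 0.00851) and rose with si033 by 0.21 ± 0.06 (adjusted *p* = 0.00332). The si025 change did not pass without control replicate 2 (adjusted *p* = 0.05, down to 3.66e-05 in other alternatives).

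*XPOT*, which exports tRNAs from the nucleus, fell with both siRNAs. Control libraries held 269, 272 and 278 CPM, si025 libraries 212, 211 and 215 CPM, and si033 libraries 181, 190.3 and 197 CPM. The 3 groups were apart. Its log2 fold change was -0.36 ± 0.04 with si025 (adjusted *p* = 1.45e-07) and -0.52 ± 0.04 with si033 (adjusted *p* = 5.14e-10), and *XPOT* was lower with si033 than with si025 (adjusted *p* = 0.00221).

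Most cytosolic tRNA synthetases fell with si025. Of 17 tested, 15 were lower with si025 (88.2%, where 28.8% of all genes were lower), none was higher, and *KARS* and *NARS* were not called, with values of -0.07 each. With the offsets these genes were also called lower (*KARS* -0.08, adjusted *p* = 0.0295, and *NARS* -0.10, adjusted *p* = 0.00591). The median log2 fold change of the 17 was -0.22, and their values ranged from -0.70 to -0.07. The lowest was that of *CARS*, on few counts and not called without control replicate 3 (adjusted *p* = 0.377). The next was *IARS* at -0.56. With si033, 8 were lower (47.1%, where 27.8% of all genes were lower) and none higher, the median was -0.11, and the range was -1.25 to 0.09. Lower with both were *GARS*, *IARS*, *LARS*, *RARS*, *SARS*, *TARS* and *YARS*. In the direct comparison 8 were lower and 3 higher with si025 than with si033 (47.1% and 17.6%, where 29.7% and 31.2% of all genes were).

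**Figure D4:**
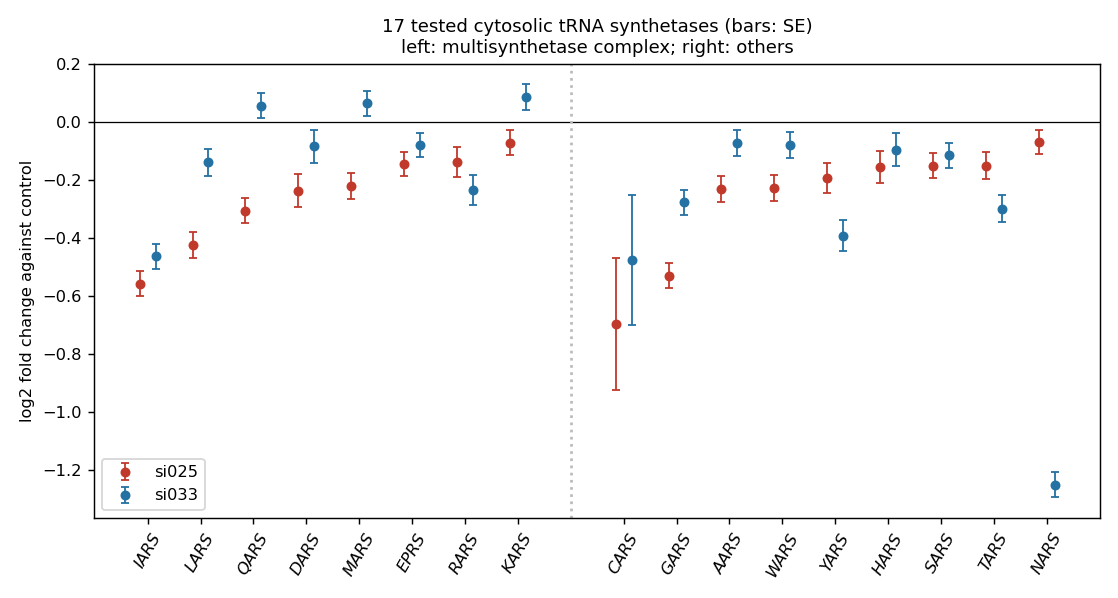
Log2 fold change against control (y axis) of the 17 tested cytosolic tRNA synthetases, with SE bars, for si025 (red) and si033 (blue); genes of the multisynthetase complex are on the left. All red points lie below 0, from -0.70 (*CARS*, on few counts) to -0.07, and *NARS* with si033 lies lowest at -1.25.

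Among the 8 synthetases of the multisynthetase complex, 7 were lower with si025 (87.5%, where 28.8% of all genes were) and 3 with si033 (37.5%, where 27.8% were). In the direct comparison 5 were lower with si025 than with si033 (62.5%, where 29.7% of all genes were). *IARS*, for isoleucine, was at 252, 267 and 259 CPM in control, 180.1, 170 and 179 CPM with si025 and 182, 194 and 188 CPM with si033. All si025 and si033 libraries lay below control. The log2 fold changes of *IARS* were -0.56 ± 0.04 (adjusted *p* = 1.68e-10) and -0.46 ± 0.04 (adjusted *p* = 5.79e-09), the largest falls within the complex with either siRNA.

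*LARS*, for leucine, was at 153, 150.5 and 160 CPM in control, 114, 113 and 119 CPM with si025 and 139, 136 and 145 CPM with si033. The groups did not overlap, with si025 lowest. It fell with si025 by 0.42 ± 0.05 (adjusted *p* = 3.51e-08) and with si033 by 0.14 ± 0.05 (adjusted *p* = 0.0131), the latter call being lost without control replicate 3 (adjusted *p* = 0.102, down to 0.000349 in other alternatives). *QARS*, for glutamine, was at 258, 278 and 264 CPM in control, 218, 218 and 212 CPM with si025 and 291, 269 and 272 CPM with si033. Only the si025 libraries lay apart. In log2 terms *QARS* was at -0.31 ± 0.04 with si025 (adjusted *p* = 2.69e-06) and 0.06 ± 0.04 with si033 (adjusted *p* = 0.291), and the siRNAs differed by -0.36 (adjusted *p* = 2.23e-07).

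*DARS*, *EPRS*, *MARS* and *RARS* fell with si025 by 0.14 to 0.24 on the log2 scale, and *RARS* also fell with si033 by 0.23 (adjusted *p* = 0.000551). The *RARS* call with si025 was lost without si025 replicate 1 and without control replicate 2 or 3 (adjusted *p* from 0.067 to 0.096). *MARS* was lower with si025 than with si033 by 0.28 (adjusted *p* = 7.61e-06). *DARS* was also lower with si025 than with si033 (-0.15, adjusted *p* = 0.0266), which did not hold without si025 replicate 3 or si033 replicate 2 or 3 (adjusted *p* from 0.0695 to 0.159). *KARS*, called with neither siRNA against control, was lower with si025 than with si033 by 0.16 (adjusted *p* = 0.00329). With si033 *KARS* stood at 0.09 and was called higher under upper quartile normalization, with the 5 CPM filter and with the offsets (adjusted *p* from 0.0258 to 0.0483).

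Outside the complex, 8 of 9 tested synthetases were lower with si025 (88.9%, where 28.8% of all genes were) and 5 with si033 (55.6%, where 27.8% were). *NARS*, which charges asparagine tRNA and was the most abundant synthetase per length in control at 99.1 RPKM, had the largest change of any gene in the group with si033. It was at 281, 282 and 291 CPM in control, 266, 268 and 280 CPM with si025 and 117, 119 and 122 CPM with si033. The si033 libraries lay far below the others, and all si025 libraries lay just below control. In log2 terms *NARS* was at -1.25 ± 0.04 with si033 (adjusted *p* = 1.77e-16), 42% of control, and -0.07 ± 0.04 with si025 (adjusted *p* = 0.146). It was 2.27-fold higher with si025 than with si033 (adjusted *p* = 1.53e-16).

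*GARS*, for glycine, was at 199.6, 209 and 202 CPM in control, 139.9, 139 and 143 CPM with si025 and 169, 168 and 166 CPM with si033. The groups were apart, with si025 lowest. It fell by 0.53 ± 0.04 (adjusted *p* = 2.06e-10) and 0.28 ± 0.04 (adjusted *p* = 6.63e-06). *CARS*, on few counts, was at 2.36, 2.03 and 3.94 CPM in control, 2.18, 1.69 and 1.72 CPM with si025 and 2.23, 2.32 and 1.97 CPM with si033. Control replicate 3 stood above all other libraries, and the rest overlapped. The log2 fold change of *CARS* with si025 was -0.70 ± 0.23 (adjusted *p* = 0.0106), and it was not called without control replicate 3 (adjusted *p* = 0.377, down to 0.00299 in other alternatives).

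*AARS*, *HARS*, *SARS*, *TARS*, *WARS* and *YARS* fell with si025 by 0.15 to 0.23 on the log2 scale. The *HARS* call did not hold without si025 replicate 3 or control replicate 1 or 2 (adjusted *p* from 0.053 to 0.144). With si033, *YARS* fell by 0.39 (adjusted *p* = 1.46e-06), *TARS* by 0.30 (adjusted *p* = 1.07e-05) and *SARS* by 0.11 (adjusted *p* = 0.0278). The *SARS* call with si033 was lost in 7 alternatives, 5 of which left out a si033 library or control replicate 1 or 2 (adjusted *p* from 0.0523 to 0.124). *YARS* and *TARS* were lower with si033 than with si025 (adjusted *p* = 0.00242 and 0.00851), the latter not without si025 replicate 3 (adjusted *p* = 0.0713, down to 0.0054 in other alternatives). *AARS* and *WARS* were lower with si025 (adjusted *p* = 0.00387 and 0.00559). Of the 11 genes whose promoter held TGATGNAA, 9 were lower with si025 (81.8%) and 6 with si033 (54.5%), and none was higher with either. Of all 48 tested genes of the group 62.5% and 50% were lower, and of all genes 28.8% and 27.8%. The holders *AARS*, *CARS*, *IARS*, *MARS*, *NARS* and *TARS* are synthetases, and of all 17 tested synthetases 88.2% and 47.1% were lower. Whether the holders differed from the other genes of the group was not tested.

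**Figure D5:**
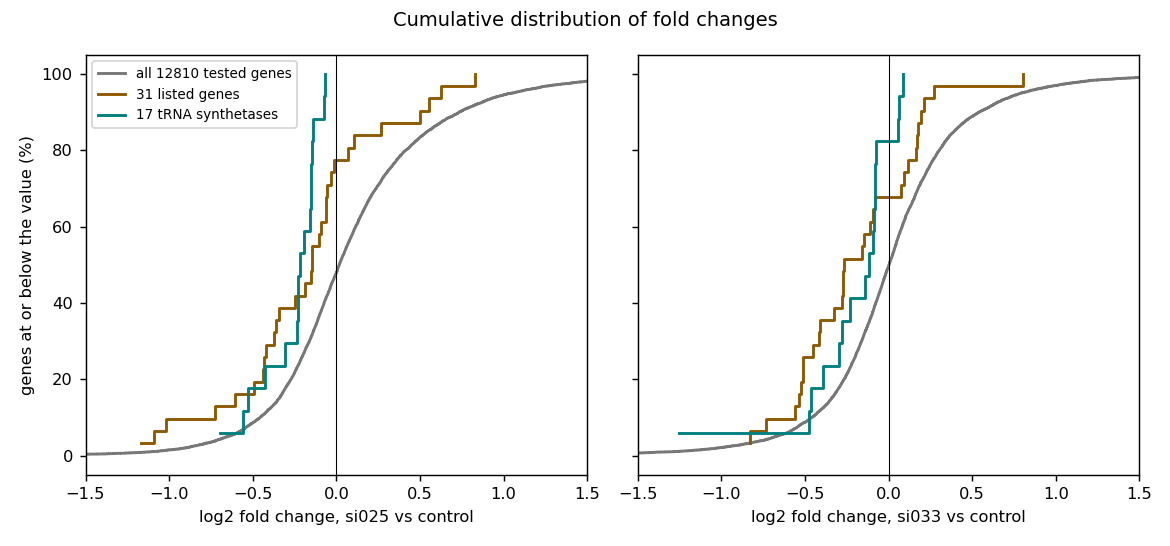
Share of genes at or below each log2 fold change (y axis, %) for all 12810 tested genes (grey), the 31 listed genes (brown) and the 17 tested tRNA synthetases (green), with si025 on the left and si033 on the right. With si025 the whole green curve lies below 0 (median -0.22), while the brown curve (median -0.15) has its upper end to the right of 0.

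Neighbouring gene lists of the pathway were counted in the same fit, and each count stands against the 28.8% lower and 32.9% higher of all genes with si025 and the 27.8% and 26.9% with si033. Of 5 genes for the phenylalanyl-tRNA synthetase and the scaffold of the complex, 3 were lower with each siRNA and none was higher. *FARSB*, the beta subunit, fell by 0.49 with si025 and 0.57 with si033 (adjusted *p* = 2.11e-09 and 2.34e-10), and the scaffold gene *AIMP2* by 0.14 and 0.30 (adjusted *p* = 0.0492 and 0.000411). *FARSA*, the alpha subunit, fell with si025 by 0.27 (adjusted *p* = 0.000174) and was at -0.10 with si033 (adjusted *p* = 0.104).

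Mitochondrial synthetases moved in both directions. Of 16 tested, 9 were lower (56.2%) and 3 higher (18.8%) with si025, and 5 lower (31.2%) and 3 higher with si033. *AARS2* fell with si025 by 1.06 ± 0.05 (adjusted *p* = 3.54e-14), from 102 ± 1.6 to 49.0 ± 0.837 CPM (SD, n = 3), and was at -0.07 with si033 (adjusted *p* = 0.211). *LARS2* and *MARS2* fell with both siRNAs, by 0.21 and 0.39 with si025 and by 0.64 and 0.78 with si033. Of 13 tested genes for eIF2, eIF2B and their regulators, 4 were lower (30.8%, near the share of all genes) and 2 higher (15.4%) with si025, and 7 lower (53.8%) and 1 higher (7.69%) with si033. *PPP1R15B*, the constitutive partner of the eIF2α phosphatase, fell by 0.53 and 0.72 (adjusted *p* = 2.05e-09 and 2.06e-11). *EIF2S2*, the beta subunit of eIF2, fell by 0.16 and 0.28, and *EIF2B5*, the catalytic subunit of eIF2B, fell with si033 by 0.30 (adjusted *p* = 5.49e-05) and was at -0.11 with si025 (adjusted *p* = 0.076).

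Of 20 other tested ATF4 pathway genes, 7 were higher and 7 lower with si025, 35% each way and near the shares of all genes, and 3 were higher (15%) and 9 lower (45%) with si033. *ATF5*, a close relative of ATF4, rose with si025 by 1.07 ± 0.05 (adjusted *p* = 8.27e-15), from 78.8 ± 2.0 to 165 ± 6.11 CPM (SD, n = 3), and was at 0.03 with si033 (adjusted *p* = 0.598). *GDF15*, a secreted stress cytokine, fell with si033 by 2.23 ± 0.11 (adjusted *p* = 1.09e-13), from 23.4 ± 2.94 to 4.95 ± 0.249 CPM (SD, n = 3), and with si025 by 0.27 (adjusted *p* = 0.0104). *GADD45A*, a growth arrest gene, fell with si033 by 1.39 ± 0.08 (adjusted *p* = 1.45e-12) and was at -0.11 with si025 (adjusted *p* = 0.177).

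Of 25 other tested genes of serine, glycine, folate, proline and cysteine metabolism, 5 were higher (20%) and 11 lower (44%) with si025, and 3 higher (12%) and 14 lower (56%) with si033. *CDO1*, which oxidizes cysteine, rose with si025 by 0.85 ± 0.09 (adjusted *p* = 1.2e-08) and was at -0.11 with si033 (adjusted *p* = 0.329). *GOT1*, the cytosolic aspartate aminotransferase, fell with si033 by 0.88 ± 0.05 (adjusted *p* = 8.04e-13) and was at -0.07 with si025 (adjusted *p* = 0.177). *MTR*, the methionine synthase, fell by 0.35 with si025 and 0.88 with si033. Among 15 markers of the IRE1 and ATF6 branches of the unfolded protein response, 11 were lower with each siRNA (73.3%), 2 were higher with si025 (13.3%) and 1 with si033 (6.67%). The chaperone *HSP90B1* fell by 0.78 and 0.56 and the secreted *MANF* by 0.92 and 0.51, while *ERN1*, which encodes IRE1 itself, rose by 0.83 with si025 and 0.29 with si033 (adjusted *p* = 6.36e-11 and 0.000641).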

How the data were processed

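RNA-seq was performed on 9 libraries, grouped by their titles. The authors aligned reads with HISAT2 2.1.0 and counted read pairs over exons per gene symbol with featureCounts 1.5.2 in reverse-stranded mode (hg38), per the file headers and the submitters' processing notes. The deposited values are raw counts, and the deposited exon lengths were used for RPKM. The headers name a RefSeq annotation whereas the methods name GENCODE, and the labels name a Promega extraction kit whereas the methods name a Qiagen kit.

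The counts were tested with edgeR 4.0.16 in R 4.3.3 (quasi-likelihood, TMM normalisation, filterByExpr, 12810 genes, all 9 libraries in 1 fit with 3 group means and no covariate). CPM are TMM-normalised. SE are the absolute fold change over the square root of F. The procedure was run on simulated data in which far fewer genes changed than were called here, so that run does not vouch for these calls. Libraries of 1 group varied beyond counting noise (chi-square per degree of freedom 1.69 to 5.09 for each pair), so none were merged. The study gives biological replicates in a figure legend, and the labels do not say whether the libraries of a group came from separate cultures. If they did not, *p* values measure only technical spread between these libraries. Alternatives were RLE and upper quartile normalisation, DESeq2 1.42.0, limma-voom (limma 3.58.1), no filter, at least 5 CPM in 3 libraries, the replicate block, offsets for gene length and GC content, only the 2 groups compared, and leaving out each library. Leaving out *CARS* and *CBS* was added after the data were seen.

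The genes and lists were chosen with earlier results of these data known. Values in every library are given for *ATF4*, for genes called in opposite directions, and, in each role group, for the 2 tested genes (3 in each synthetase group) with the largest absolute log2 fold change against control. From each neighbouring list, the 3 genes with the largest such change are named. No promoter entry was matched for *NUPR1*, *PSPH*, *SHMT2*, *ALDH1L2*, *PYCR1*, *SLC7A11*, *DARS*, *LARS*, *VARS* and *YARS*. Of the cell type markers chosen, 2 are not reported here.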

Additional observations from a re-analysis of the deposited data

Results flagged for a closer look

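The effects of si025 and si033 against control differed, in the direct test between the siRNAs (edgeR's quasi-likelihood test, adjusted *p* under 0.05), for 29 of the 48 tested genes, a share of 60.4% where 60.9% of all genes differed. All values here are log2 differences, si025 minus si033, and positive values mean a higher level with si025. The 14 positive differences were 1.38 for *SLC1A5*, 1.18 for *NARS*, 0.66 for *NUPR1*, 0.50 for *DDIT3*, 0.45 for *DDIT4*, 0.39 for *VLDLR*, 0.37 for *PPP1R15A*, 0.33 for *CTH*, 0.31 for *ALDH18A1*, 0.22 for *EIF2AK3*, 0.21 for *TRIB3*, 0.20 for *YARS*, 0.16 for *XPOT* and 0.15 for *TARS*. The 15 negative differences were -1.24 for *PSAT1*, -0.74 for *SLC7A11*, -0.40 for *STC2*, -0.36 for *QARS*, -0.35 for *PHGDH*, -0.29 for *LARS*, -0.28 for *MARS*, -0.26 for *SLC3A2*, -0.25 for *GARS*, -0.19 for *EIF2AK4*, -0.17 for *SLC7A1*, -0.16 for *AARS*, -0.16 for *KARS*, -0.15 for *DARS* and -0.15 for *WARS*. With offsets for gene length and GC content the *TRIB3* difference was not called (adjusted *p* = 0.0562). Groups of 3 libraries were too small for a search for single outlying libraries.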

How the results depend on the processing

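Over the alternatives, the genes called numbered 29 to 41 of the group with si025, 26 to 36 with si033 and 26 to 37 between the siRNAs. Without *CARS* and *CBS* they were 33, 29 and 29. Calls over all tested genes ranged from 6972 to 8701 with si025, 6151 to 7680 with si033 and 6947 to 8533 between the siRNAs. Of 2580 values of single genes under an alternative, 2457 kept their direction and their side of the threshold. With offsets for gene length and GC content, the median log2 fold change of the group was -0.25 with si025, -0.20 with si033 and -0.11 between the siRNAs, and 23 genes were lower with si025 than with si033, in place of 15. These offsets added 8 calls with si025, all lower (*ALDH18A1*, *ATF4*, *EIF2AK4*, *KARS*, *NARS*, *PPP1R15A*, *PYCR1* and *TRIB3*), and removed that of *SESN2*. With si033 they added 5 lower (*AARS*, *CEBPB*, *EPRS*, *PYCR1* and *WARS*) and 2 higher (*KARS* and *PSAT1*). Between the siRNAs they added 8 lower with si025 (*CEBPB*, *CHAC1*, *EPRS*, *IARS*, *PSPH*, *PYCR1*, *SARS* and *SLC7A5*) and 1 higher (*RARS*), and removed that of *TRIB3*. With these offsets the median of all genes was -0.04, -0.01 and -0.05. Lower calls over all 12810 genes rose from 3688 to 4857 with si025, from 3566 to 4084 with si033 and from 3808 to 4875 between the siRNAs. Higher calls went from 4220 to 3844, from 3449 to 3596 and from 3993 to 3658. The gain in lower calls was therefore not limited to the group. Upper quartile normalization gave a median of -0.12 with si033. Leaving out 1 library gave medians from -0.22 to -0.17 with si025, the lowest without si025 replicate 2.

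Some values that were not called changed sign. *EIF2AK4* with si025 was at 0.0058 under upper quartile normalization, -0.10 with the offsets (called lower, adjusted *p* = 0.0303) and from -0.0389 to 0.0137 when 1 library was left out. *CBS* with si025 was at -0.12 with the offsets, and between the siRNAs it ranged from -0.0854 to 0.0334 with 1 library left out. In the same way *DDIT4* with si025 ranged from -0.16 to 0.0487, *CHAC1* with si025 from -0.71 to 0.12 and with si033 from -0.18 to 0.65, and *PYCR1* between the siRNAs from -0.0177 to 0.0333. The *PYCR1* difference was also -0.0049 with RLE, -0.0016 with upper quartile normalization, -0.0051 with DESeq2, -0.011 with the 5 CPM filter, -0.0002 with the 2 groups alone and -0.10 with the offsets, the last called (adjusted *p* = 0.0257, from 0.0257 to 0.997 over the fits that changed sign). The cause of these changes was not tested.

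Deviations of libraries with the same replicate number correlated between -0.021 and 0.073, and those with other numbers between -0.12 and 0.106. In each group replicate 1 was the shallowest library and replicate 3 the deepest. Whether the numbers mark a shared preparation or sequencing run was not tested. The replicate block gave 35, 30 and 29 genes of the group, and 8000, 7094 and 7843 of all genes. Libraries correlated best with their own number in 7 of 18 cases. Low counts limit *CARS*, *CHAC1*, *ALDH1L2* and *SLC7A5*, and *VARS* could not be read.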
